A study of Mus musculus with 12 samples.

Results

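The 33 genes described here are interferon-stimulated genes whose products act against viruses. They were taken as a named list of symbols, and all 33 were found among the 55401 gene IDs of both deposited count tables. The libraries came from myeloid cells sorted as CD45+/CD11b+/Ly6G- from mouse hind paws. The labels give 2 genotypes: FABP5Flox mice (called Flox) and FABP5Flox/LysM-Cre mice (called cKO), in which a Cre recombinase expressed from the lysozyme M gene Lyz2 targets floxed Fabp5, a gene for a fatty acid carrier protein, in myeloid cells. Paws of each genotype received sterile saline or 1% carrageenan, a seaweed polysaccharide that provokes acute inflammation, and cells were taken 4 h later, which gives 4 groups of 3 libraries. Each library was a pool of 3 or 4 adult mice, with 10 mice in each Flox group and 12 in each cKO group by the number ranges of the titles. Both genotypes carry the floxed allele and no group carries LysM-Cre alone, so the Cre, the Lyz2 allele that carries it and the targeting of Fabp5 cannot be told apart. P-values measure the spread between these pools. Values are normalized counts on 1 scale for all 12 libraries, and pools are always listed in the order of their mouse numbers (1-3, 4-7 and 8-10 for Flox; 1-4, 5-8 and 9-12 for cKO).

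Type I interferons bind a receptor whose kinases activate STAT factors, among them STAT2, which joins IRF9 in a complex that binds a DNA element called the ISRE. Genes beside such elements are switched on together, and many of their products detect viral RNA, cut it, block its translation or trap virus particles at membranes. Macrophages and monocytes carry this programme also in sterile inflammation, where microbial ligands are replaced by signals from damaged tissue.

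Promoters are shown first because many of these genes share the element named above. RefSeq promoter windows (GRCm38.p6, 250 bases before and 50 after a gene's start) were at hand for 24 of the 33 genes, in 28 windows. The ISRE core searched was GAAANNGAAA, on both strands (TTTCNNTTTC on the other). At least 1 match was found for 13 of the 24 genes (54.2%), compared with 3.99% of the 27025 genes in the whole RefSeq table. Restricting the search to the bases before the start left 9 of 24 (37.5%, against 3.46% of all genes). The GAS element, TTCNNNGAA, which reads the same on both strands, was found for 7 of 24 genes (29.2%), compared with 9.55% of all genes. In Oas1a, Bst2, Ifitm3 and Eif2ak2 a window held both motifs, and the GAS letters overlapped an ISRE core match in Bst2 and Ifitm3. These matches describe letters in a window and are not measured binding sites.

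The promoters below are those of the gene with the highest mean normalized count among the genes with a match, for the first 4 role groups that had one. Each runs 5′ to 3′ on the gene's strand and ends at the last base before the RefSeq start, which can differ by some bases from the gene coordinates given later, and capitals mark matches to the ISRE core. They come from chr4:156200819-156201068 (Isg15), chr19:34640639-34640888 (Ifit1), chr5:120777660-120777909 (Oas3) and chr12:26456453-26456702 (Rsad2). Isg15, Oas3 and Rsad2 lie on the minus strand and Ifit1 on the plus strand.
Isg15: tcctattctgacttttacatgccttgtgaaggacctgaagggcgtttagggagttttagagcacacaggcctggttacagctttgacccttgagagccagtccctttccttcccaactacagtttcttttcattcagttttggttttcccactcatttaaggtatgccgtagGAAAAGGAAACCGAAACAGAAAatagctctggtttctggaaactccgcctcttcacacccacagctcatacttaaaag
Ifit1: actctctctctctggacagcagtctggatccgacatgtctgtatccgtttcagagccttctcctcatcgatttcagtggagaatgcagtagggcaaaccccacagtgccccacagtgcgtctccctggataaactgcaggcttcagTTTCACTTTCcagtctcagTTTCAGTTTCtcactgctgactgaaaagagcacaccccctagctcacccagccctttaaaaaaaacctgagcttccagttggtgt
Oas3: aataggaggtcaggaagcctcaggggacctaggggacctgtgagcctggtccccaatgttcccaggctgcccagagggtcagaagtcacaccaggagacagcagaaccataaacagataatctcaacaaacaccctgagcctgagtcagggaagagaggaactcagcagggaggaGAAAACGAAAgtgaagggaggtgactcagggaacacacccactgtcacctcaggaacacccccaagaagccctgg
Rsad2: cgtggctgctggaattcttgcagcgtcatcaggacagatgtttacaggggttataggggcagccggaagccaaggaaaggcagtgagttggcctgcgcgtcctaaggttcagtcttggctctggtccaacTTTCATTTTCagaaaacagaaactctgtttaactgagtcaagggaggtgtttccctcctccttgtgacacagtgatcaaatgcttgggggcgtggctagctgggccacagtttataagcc

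In Isg15, 3 overlapping matches began 78, 72 and 66 bases before the start and formed 1 run. Ifit1 held separate matches 104 and 85 bases before its start, Oas3 a single match 75 bases before and Rsad2 a single match 120 bases before. Ifit3 and Ifit3b are neighbouring near-copies, and their windows held the same pair of matches (156 and 122 bases before the start in Ifit3; 188 and 154 in Ifit3b). The 54 bases around that pair, from chr19:34583368-34583421 and chr19:34607764-34607817 on the plus strand, were identical at 54 of 54 positions and are shown because the genes also moved together below; this pair was chosen after its values were seen.
Ifit3: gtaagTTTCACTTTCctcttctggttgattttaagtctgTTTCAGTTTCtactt
Ifit3b: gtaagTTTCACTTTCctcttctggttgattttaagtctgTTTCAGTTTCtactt

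**Figure D1:**
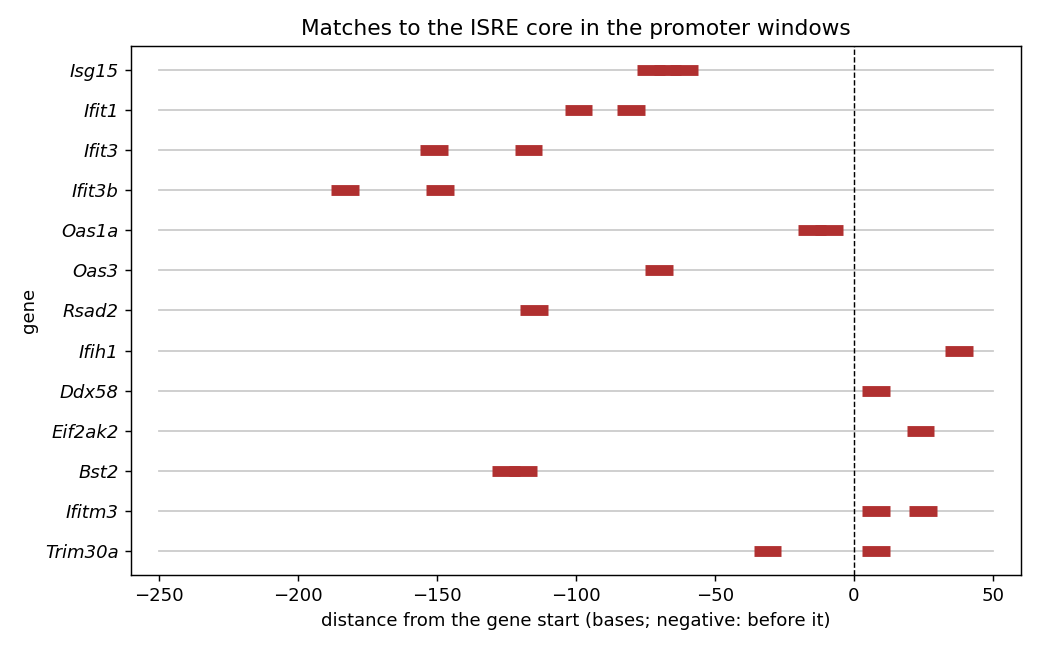
Matches to the ISRE core in the RefSeq promoter windows of the 13 genes that have one; the horizontal axis is the distance from the gene start in bases, negative before it, the grey line is the window and a red block is a match. In Isg15, Ifit1, Ifit3, Ifit3b, Oas1a, Oas3, Rsad2 and Bst2 every match lies before the start, and in Ifih1, Ddx58, Eif2ak2 and Ifitm3 every match lies within the first 50 bases after it.

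Depth differed between the genotypes. Reads assigned to genes ranged from 111925 to 994161 in Flox and from 508407 to 2987015 in cKO, and a read was worth 5.55 normalized counts in the shallowest library (Flox saline 1-3) but 0.255 in the deepest (cKO saline 5-8). In Flox saline 1-3, 18 of the 33 genes had no read, compared with 0 to 4 in the other 11 libraries. Fabp5 itself read 5.55, 35.2 and 22.6 in Flox saline, 44.5, 98.6 and 34.2 in Flox carrageenan, 6.12, 4.08 and 11.2 in cKO saline and 6.15, 11.6 and 23.2 in cKO carrageenan, lower on average in cKO by log2 fold changes of -1.20 ± 0.79 in saline and -2.06 ± 0.53 in carrageenan that did not pass the test (adjusted p 0.683 and 0.497); whether the reads fall on the deleted part is not given in the sources used here. Lyz2, which carries the Cre, read 2952, 4992 and 5179 in Flox saline, 5880.1, 4614 and 5938 in Flox carrageenan, 2976, 2719.6 and 2726 in cKO saline and 1931, 2172 and 3519 in cKO carrageenan, with log2 fold changes of cKO over Flox of -0.57 ± 0.37 and -1.14 ± 0.28 (adjusted p 0.683 in saline and 0.497 in carrageenan). The markers Ptprc (CD45), Itgam (CD11b) and Csf1r had reads in every library, Ly6g had 4 reads in all 12 together, and of 6 T and NK cell markers and 3 B cell markers no gene had more than 8 reads in all. Keratin transcripts of skin were present in each library (4 keratinocyte markers summed to 249.7 to 1444).

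**Figure D2:**
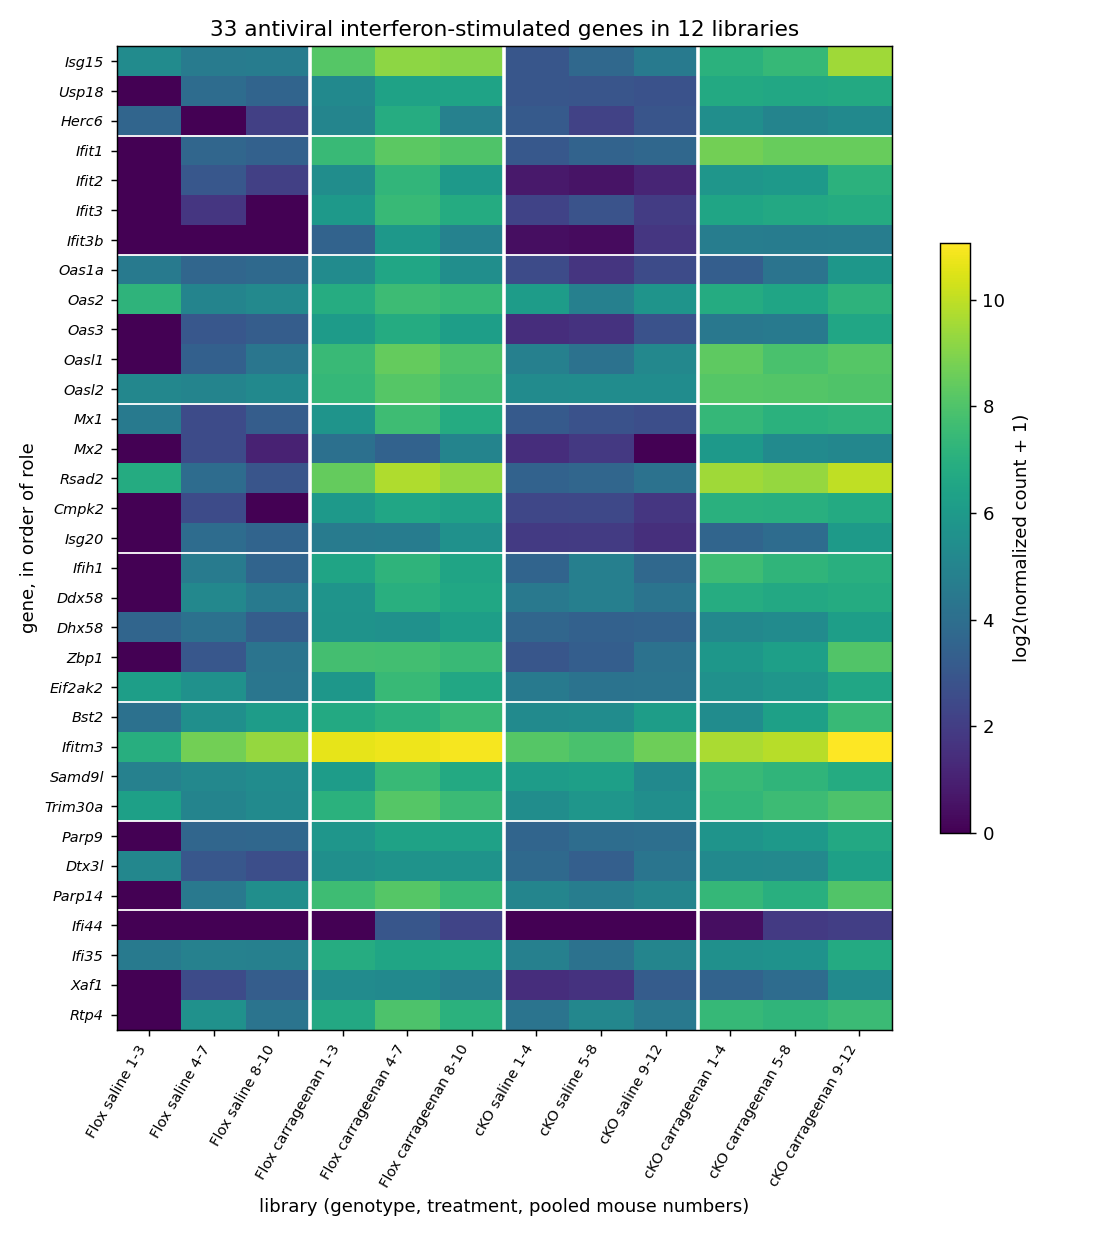
Levels of the 33 genes in each of the 12 libraries as log2(normalized count + 1), with genes in order of role and white lines between role groups and between sample groups. The 6 carrageenan libraries are brighter than the 6 saline libraries in nearly every line, and the dark cells of Flox saline 1-3 are genes with no read.

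Carrageenan against saline, asked within each genotype, was the comparison in which these genes moved. In Flox, 26 of the 32 genes that could be tested rose and 0 fell (limma on log2(normalized count + 1), Benjamini-Hochberg adjusted p under 0.05 over 10240 genes), where 4.42% of all genes tested rose. In cKO, 15 of 32 rose and 0 fell, against 2.10% of all genes tested. The median log2 fold change of the 32 genes was 3.40 in Flox and 2.74 in cKO, beside 0.10 and -0.07 over all genes tested. Ifi44 did not pass the filter on low values, which asks for 3 libraries with normalized counts of 5 or more. Some carrageenan pool lay at or below a saline pool for 2 of 32 genes in Flox (Oas2 and Eif2ak2) and 1 of 32 in cKO (Bst2), as was so for 87.0% and 87.4% of all genes tested.

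The count in cKO depends on a library of the other genotype. All 12 libraries share 1 estimate of the spread, and without Flox saline 1-3, the library with 18 genes at 0, 31 of 32 genes rose in cKO (3.71% of all genes) and 27 of 32 in Flox. With edgeR's quasi-likelihood test on the recovered reads the counts were 30 in cKO (4.58% of all genes) and 26 in Flox. Leaving out the cKO carrageenan pool 9-12 together with Flox saline 1-3, a choice made after seeing the data, gave 24 in cKO and 30 in Flox. The share over all genes was not computed for this last fit or for the Flox counts of these alternatives. The size of the change in Flox also depended on the fit, and the median over the 32 genes was 2.79 with edgeR (2.75 in cKO). Among the 13 genes with no read in Flox saline 1-3 and more than 3 reads in Flox saline, the median log2 fold change in Flox was 3.97 with limma and 2.98 with edgeR, while among the 15 genes with a read there it was 2.06 and 2.18. Of the calls, 17 of 26 in Flox and 10 of 15 in cKO held whichever of the 12 libraries was left out. Across the 32 genes the log2 fold changes in the 2 genotypes had a Pearson correlation of 0.76 (Spearman 0.82), a description over genes that share their libraries.

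**Figure D3:**
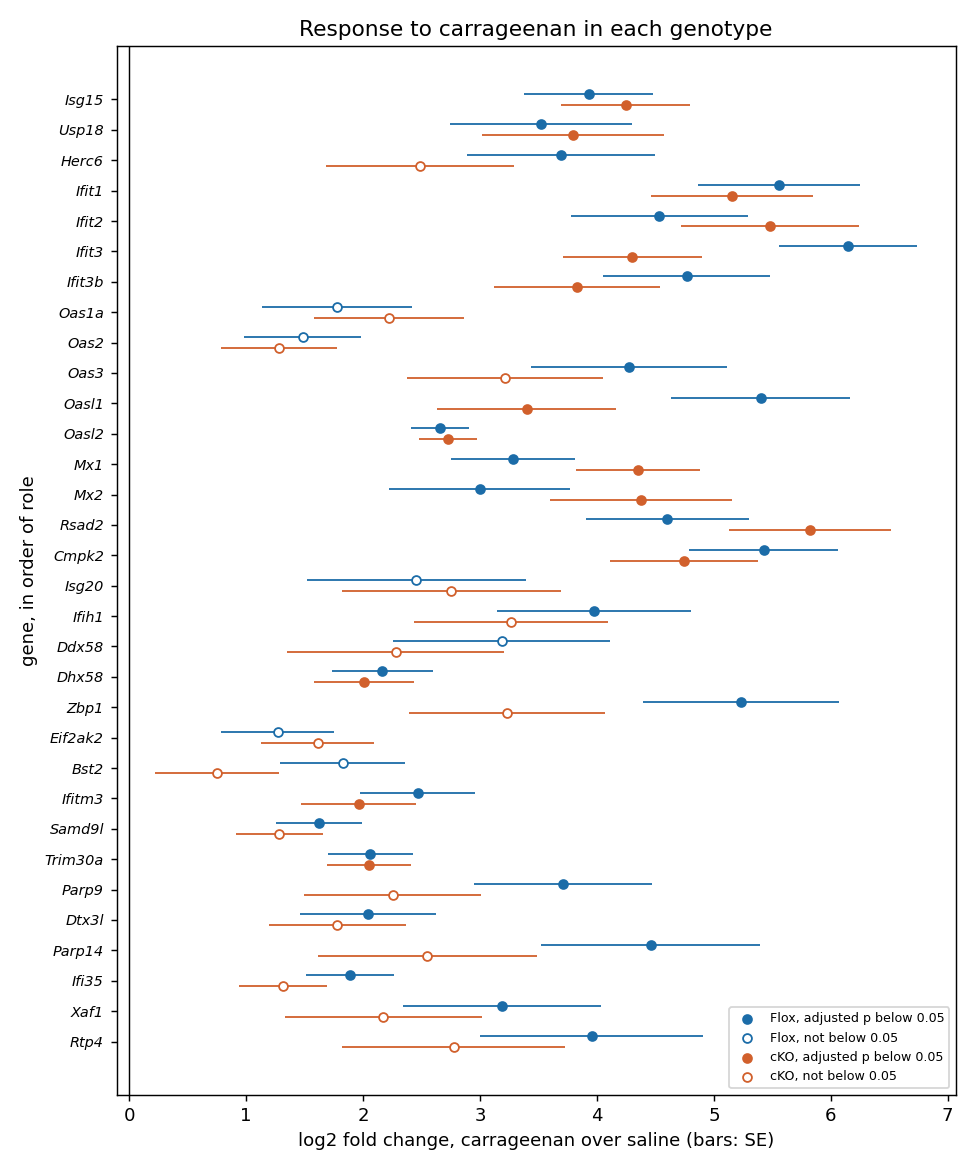
Log2 fold change of carrageenan over saline for the 32 tested genes in Flox (blue) and cKO (orange), with bars for 1 standard error; filled points have an adjusted p below 0.05. All points lie to the right of 0, and more of the Flox points (26) than of the cKO points (15) are filled, with standard errors that overlap for most genes.

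The ISG15 system tags proteins with the ubiquitin-like ISG15, and 3 of its 3 genes listed rose in Flox and 2 of 3 in cKO. Isg15 (chr4:156199424-156200818, minus strand), the tag itself, read 38.8, 23.4 and 23.7 in Flox saline, 280.4, 575 and 525 in Flox carrageenan, 6.80, 12.5 and 21.9 in cKO saline and 133, 171 and 710.3 in cKO carrageenan. All carrageenan pools lay above all saline pools, and among the cKO carrageenan pools 9-12 stood well above 1-4 and 5-8. The log2 fold change was 3.93 ± 0.55 in Flox (adjusted p 0.00118) and 4.25 ± 0.55 in cKO (adjusted p 0.00104). Usp18 (chr6:121245906-121270917, plus strand) encodes the protease that removes ISG15 and also restrains signalling at the type I interferon receptor. Its values were 0, 14.1 and 10.8 in Flox saline, 36.7, 81.6 and 85.1 in Flox carrageenan, 6.80, 6.62 and 5.92 in cKO saline and 104, 99.6 and 103 in cKO carrageenan. The 3 cKO carrageenan pools lay close together and above the highest Flox carrageenan pool, and the rises were 3.52 ± 0.78 in Flox (adjusted p 0.0142) and 3.79 ± 0.78 in cKO (adjusted p 0.0182). The Usp18 call in Flox was lost without Flox carrageenan 4-7 or 8-10, and that in cKO was lost without any 1 of the 6 cKO pools. Herc6 (chr6:57581000-57664632, plus strand), the main ISG15 ligase of mice, rose in Flox (3.69 ± 0.81, adjusted p 0.0133; lost without Flox carrageenan 4-7), while in cKO its log2 fold change was 2.49 ± 0.81 (adjusted p 0.156). By edgeR the adjusted p of Herc6 in cKO was 0.0016.

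The IFIT proteins bind viral RNA and hold back its translation, and 4 of 4 genes rose in both genotypes. They lie together on chromosome 19 within the stretch from Ifit2 (chr19:34550694-34576419, plus strand) and Ifit3 (chr19:34583531-34588731, plus strand) through Ifit3b (chr19:34607970-34613401, plus strand) to Ifit1 (chr19:34640871-34650009, plus strand). Ifit1, which recognises RNA that lacks the host's cap methylation, read 0, 11.7 and 9.71 in Flox saline, 178, 309 and 254 in Flox carrageenan, 7.14, 10.4 and 11.8 in cKO saline and 419.6, 362 and 354 in cKO carrageenan. Saline pools lay at 11.8 or below and every carrageenan pool at 178 or above, for log2 fold changes of 5.56 ± 0.70 in Flox (adjusted p 0.000752; 4.78 with edgeR) and 5.16 ± 0.70 in cKO (adjusted p 0.00132). Ifit3, a partner that stabilises Ifit1 on RNA, read 0, 2.34 and 0 in Flox saline, 60.3, 173 and 111 in Flox carrageenan, 3.74, 6.12 and 2.96 in cKO saline and 89.6, 100.2 and 111 in cKO carrageenan. Flox saline held 1 read of Ifit3 in all 3 pools against 220 in Flox carrageenan, a ratio of 169 per unit of depth with an exact 95% counting interval of 30.1 to 6722 (adjusted p 7.54e-05). In cKO, with 40 reads in saline, the log2 fold change of Ifit3 was 4.30 ± 0.59 (adjusted p 0.00156). Ifit3b had 0 reads in Flox saline and 59 in Flox carrageenan, at least 15.1-fold higher against a floor of 3 reads over the group (adjusted p 0.00162). In cKO it rose by 3.83 ± 0.71 (adjusted p 0.0104; lost without cKO carrageenan 5-8, cKO saline 1-4 or cKO saline 5-8). Ifit3 and Ifit3b share an exact run of 329 bases in their annotated transcripts. Their last 300 bases, the end that a 3′ library targets, were 44.2% identical, with a longest shared run of 8 bases. Reads from the shared run could not be split between the 2 genes, and how many reads fell there was not tested. Ifit2 rose by 4.53 ± 0.76 in Flox and 5.48 ± 0.76 in cKO (adjusted p 0.00309 and 0.00163), with only 6 reads in Flox saline and 6 in cKO saline.

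The OAS enzymes sense double-stranded RNA and make short oligoadenylates that activate the nuclease RNase L, and 3 of 5 family genes rose in Flox and 2 of 5 in cKO. Oasl1 (chr5:114923240-114937915, plus strand), a relative without that enzyme activity that is known to hold back translation of Irf7, read 0, 9.38 and 19.4 in Flox saline, 181, 350.2 and 249 in Flox carrageenan, 26.9, 17.1 and 34.3 in cKO saline and 315, 235 and 279 in cKO carrageenan. Both genotypes showed high carrageenan pools with overlapping ranges, and the rises were 5.40 ± 0.77 in Flox (adjusted p 0.00122; 4.29 with edgeR) and 3.40 ± 0.77 in cKO (adjusted p 0.028). The call of Oasl1 in cKO was lost without any 1 of the 6 cKO pools or without Flox carrageenan 8-10. Oasl2 (chr5:114896936-114912234, plus strand), its neighbour, had the smallest standard error of the 32 genes and read 33.3, 30.5 and 36.7 in Flox saline, 165, 282 and 217 in Flox carrageenan, 39.1, 41.0 and 40.2 in cKO saline and 281, 272 and 261 in cKO carrageenan. Its log2 fold changes of 2.66 ± 0.25 and 2.73 ± 0.25 had the smallest adjusted p of the 32 genes in each genotype (7.3e-05 in Flox and 6.96e-05 in cKO). Oas3 (chr5:120753098-120777661, minus strand) rose in Flox (4.27 ± 0.84, adjusted p 0.00747; 3.55 with edgeR) and reached 3.22 ± 0.84 in cKO without passing (adjusted p 0.058; 0.0371 with the replicate block). Its edgeR adjusted p in cKO was 0.000178. Oas3 read 20.9 and 21.6 in the cKO carrageenan pools 1-4 and 5-8 but 91.1 in pool 9-12, compared with 65.5 to 112 in Flox carrageenan.

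Oas1a and Oas2 passed in neither genotype in the limma fit. Oas1a (chr5:120896256-120907521, minus strand), a catalytically active OAS enzyme, read 22.2, 11.7 and 12.9 in Flox saline, 39.3, 91.8 and 43.3 in Flox carrageenan, 4.76, 2.29 and 4.73 in cKO saline and 8.89, 18.1 and 57.1 in cKO carrageenan. The log2 fold change was 1.78 ± 0.64 in Flox (adjusted p 0.111) and 2.22 ± 0.64 in cKO (adjusted p 0.0972). EdgeR put the adjusted p of Oas1a at 0.0683 in Flox and 0.00455 in cKO. Flox saline lay above both cKO saline and the cKO carrageenan pool 1-4. Oas2 (chr5:120730333-120749853, minus strand) read 144, 30.5 and 35.6 in Flox saline, 115, 190.4 and 163 in Flox carrageenan, 68.4, 27.0 and 52.1 in cKO saline and 112, 90.7 and 142 in cKO carrageenan. A saline pool, Flox 1-3 with 26 reads, was as high as the carrageenan pools, and the log2 fold changes were 1.48 ± 0.50 and 1.28 ± 0.50 (adjusted p 0.0881 in Flox and 0.285 in cKO).

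The Mx GTPases, viperin and the neighbouring nucleotide kinase Cmpk2 showed their rise in both genotypes, with 4 of the 5 genes of this group called in each. Mx1 (chr16:97447035-97462907, minus strand), a dynamin-like GTPase that blocks influenza viruses in rodents, read 22.2, 4.69 and 8.63 in Flox saline, 52.4, 197 and 109 in Flox carrageenan, 7.82, 5.86 and 5.32 in cKO saline and 167, 134 and 144 in cKO carrageenan. All carrageenan pools exceeded all saline pools, by log2 fold changes of 3.28 ± 0.53 in Flox (adjusted p 0.00256) and 4.35 ± 0.53 in cKO (adjusted p 0.000909). Rsad2 (chr12:26442746-26456452, minus strand) encodes viperin, which makes a nucleotide that stops viral polymerases. Its values were 111, 14.1 and 6.47 in Flox saline, 343, 854 and 612 in Flox carrageenan, 10.2, 11.5 and 17.2 in cKO saline and 709, 635 and 1018 in cKO carrageenan. Flox saline 1-3 was the highest saline pool, with 20 reads, and still lay below every carrageenan pool. Rsad2 rose by 4.60 ± 0.70 in Flox (adjusted p 0.00175) and 5.82 ± 0.70 in cKO (adjusted p 0.000777), the largest log2 fold change of the 32 genes in cKO in the limma fit. With edgeR Ifit2 was above it in cKO (6.68 against 5.93). Cmpk2 (chr12:26469204-26479837, plus strand) lies 12751 bases from Rsad2 on the other strand and supplies the nucleotide that viperin uses. It had 2 reads in Flox saline and 153 in Flox carrageenan, a ratio of 58.9 (exact 95% counting interval 16.0 to 491; adjusted p 0.000484), and rose by 4.74 ± 0.64 in cKO (adjusted p 0.00131). Mx2 (chr16:97535308-97560900, plus strand), which the annotation calls a polymorphic pseudogene, had 3 reads in Flox saline and 50 in Flox carrageenan, a ratio of 12.8 (exact 95% counting interval 4.15 to 64.3; adjusted p 0.0307). That call was lost without Flox carrageenan 1-3 or 8-10, Flox saline 1-3 or cKO carrageenan 5-8, whereas in cKO the rise of 4.38 ± 0.78 (adjusted p 0.00742) held in all 12 omissions. Isg20 (chr7:78913424-78920396, plus strand), an exonuclease for RNA, read 0, 14.1 and 10.8 in Flox saline, 23.6, 23.8 and 47.1 in Flox carrageenan, 2.72, 2.80 and 1.77 in cKO saline and 11.3, 13.9 and 64.8 in cKO carrageenan. High pools were Flox carrageenan 8-10 and cKO carrageenan 9-12, and the log2 fold changes of 2.46 ± 0.94 and 2.75 ± 0.94 did not pass (adjusted p 0.133 in Flox and 0.189 in cKO). By edgeR the adjusted p of Isg20 was 0.175 in Flox and 0.00148 in cKO.

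Of 5 sensors of nucleic acid, 3 rose in Flox and 1 in cKO. Zbp1 (chr2:173206612-173218923, minus strand), which recognises nucleic acid in the Z form and can start cell death, read 0, 7.03 and 18.3 in Flox saline, 217, 211 and 178 in Flox carrageenan, 6.80, 8.92 and 17.2 in cKO saline and 56.4, 75.6 and 264 in cKO carrageenan. In Flox carrageenan its 3 pools were high and close together, whereas in cKO carrageenan pools 1-4 and 5-8 were below all Flox pools and pool 9-12 above them. The rise passed in Flox (5.23 ± 0.84, adjusted p 0.00243; 4.06 with edgeR) and not in cKO (3.23 ± 0.84, adjusted p 0.0563; 0.0499 with the replicate block). EdgeR gave Zbp1 an adjusted p of 5.6e-05 in cKO. Ifih1 (chr2:62595798-62646255, minus strand) encodes MDA5, the sensor of long double-stranded RNA. It read 0, 23.4 and 10.8 in Flox saline, 86.5, 146 and 85.9 in Flox carrageenan, 10.9, 26.0 and 12.4 in cKO saline and 199, 149 and 127 in cKO carrageenan. The rises were 3.97 ± 0.83 in Flox (adjusted p 0.0105; 2.98 with edgeR; lost without Flox carrageenan 4-7) and 3.27 ± 0.83 in cKO (adjusted p 0.0512; 0.0422 with the replicate block). The edgeR adjusted p of Ifih1 in cKO was 1.07e-05. Ddx58 (chr4:40203773-40239828, minus strand), which encodes RIG-I, the sensor of short RNA ends, read 0, 35.2 and 22.6 in Flox saline, 52.4, 126 and 94.2 in Flox carrageenan, 21.4, 26.0 and 18.3 in cKO saline and 115, 102 and 111 in cKO carrageenan. No saline pool reached a carrageenan pool, yet the log2 fold changes of 3.19 ± 0.93 and 2.28 ± 0.93 did not pass (adjusted p 0.0518 in Flox and 0.322 in cKO). With edgeR the adjusted p of Ddx58 was 0.00938 in Flox and 0.000302 in cKO, both below 0.05. Dhx58 (chr11:100694884-100704271, minus strand), a regulator in the same helicase family, rose by 2.16 ± 0.43 and 2.01 ± 0.43 (adjusted p 0.0081 in Flox and 0.0224 in cKO). With the replicate block the adjusted p of Dhx58 in cKO was 0.0524, and the call was lost in 5 of 12 omissions, each of a cKO pool. Eif2ak2 (chr17:78852564-78882573, minus strand) encodes PKR, a kinase that stops translation on double-stranded RNA, and read 72.1, 46.9 and 19.4 in Flox saline, 57.6, 173 and 97.3 in Flox carrageenan, 22.8, 17.6 and 18.3 in cKO saline and 46.8, 54.5 and 91.1 in cKO carrageenan. Flox saline 1-3 lay within the Flox carrageenan range, and the log2 fold changes were 1.27 ± 0.48 and 1.61 ± 0.48 (adjusted p 0.131 in Flox and 0.115 in cKO). By edgeR the adjusted p of Eif2ak2 was 0.0606 in Flox and 0.00976 in cKO.

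Among restriction factors that act at membranes or elsewhere in the cell, 3 of 4 rose in Flox and 2 of 4 in cKO. Ifitm3 (chr7:141009586-141010770, minus strand), which blocks fusion of virus in endosomes, read 122, 413 and 636 in Flox saline, 1591, 1778 and 1929.6 in Flox carrageenan, 286, 238 and 397 in cKO saline and 806, 936 and 2135 in cKO carrageenan. In saline the Flox pools spread over a wide range and in carrageenan they lay close together, while cKO carrageenan 9-12 exceeded every other library. Ifitm3 rose by 2.47 ± 0.49 in Flox (adjusted p 0.0082) and 1.96 ± 0.49 in cKO (adjusted p 0.0474), and the latter call held in 3 of 12 omissions. Trim30a (chr7:104409025-104465193, minus strand), a TRIM protein that restrains inflammatory signalling, read 77.7, 30.5 and 37.7 in Flox saline, 134, 279 and 185 in Flox carrageenan, 42.5, 55.5 and 42.6 in cKO saline and 157, 191 and 250.1 in cKO carrageenan. Its rises of 2.06 ± 0.36 and 2.05 ± 0.36 were alike in size (adjusted p 0.00402 in Flox and 0.00731 in cKO) and held in all 12 omissions. Samd9l (chr6:3372257-3399572, minus strand), which inhibits translation, rose in Flox (1.62 ± 0.37, adjusted p 0.0162; lost without Flox carrageenan 4-7) and reached 1.28 ± 0.37 in cKO (adjusted p 0.0957; 0.0499 with the replicate block). EdgeR gave Samd9l an adjusted p of 0.0205 in cKO. Bst2 (chr8:71534255-71537456, minus strand) encodes tetherin, which holds budding particles on the cell surface, and read 16.6, 44.6 and 69.0 in Flox saline, 105, 133 and 176 in Flox carrageenan, 38.8, 40.3 and 71.0 in cKO saline and 40.3, 77.1 and 173 in cKO carrageenan. It was the tested gene with the smallest fold change in cKO (0.75 ± 0.53, adjusted p 0.804), where carrageenan pool 1-4 lay within the saline range. In Flox the log2 fold change was 1.82 ± 0.53 (adjusted p 0.0519; 0.0156 with the replicate block). By edgeR the adjusted p of Bst2 in Flox was 0.0598.

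The PARP9-DTX3L pair, a complex that ADP-ribosylates and ubiquitinates proteins at chromatin, and Parp14 rose in Flox (3 of 3) and passed in 0 of 3 in cKO. Parp14 (chr16:35832874-35871544, minus strand), a mono-ADP-ribosyltransferase, read 0, 21.1 and 43.1 in Flox saline, 199, 286 and 180.1 in Flox carrageenan, 31.6, 25.0 and 31.9 in cKO saline and 165, 127 and 262 in cKO carrageenan. All carrageenan pools lay above all saline pools in both genotypes, and the log2 fold change was 4.46 ± 0.94 in Flox (adjusted p 0.0108; 2.99 with edgeR; lost without Flox carrageenan 4-7) and 2.55 ± 0.94 in cKO (adjusted p 0.241; 0.00013 with edgeR). Parp9 (chr16:35938470-35972605, plus strand) read 0, 11.7 and 11.9 in Flox saline, 55.0, 81.6 and 78.3 in Flox carrageenan, 11.2, 14.3 and 15.4 in cKO saline and 51.3, 61.4 and 100.4 in cKO carrageenan. The corresponding log2 fold changes were 3.71 ± 0.76 in Flox (adjusted p 0.00934; 2.83 with edgeR) and 2.25 ± 0.76 in cKO (adjusted p 0.182; 0.000187 with edgeR). Dtx3l (chr16:35926511-35939151, minus strand) overlaps Parp9 by 682 bases on the other strand, and whether strand was used in counting is not given in the sources used here, so that reads in the overlap cannot be assigned. Dtx3l rose by 2.04 ± 0.58 in Flox (adjusted p 0.0485), a call lost in 11 of 12 omissions (it held without Flox saline 1-3), and by edgeR its adjusted p was 0.0206. The call was also lost with the replicate block (adjusted p 0.0511). In cKO it reached 1.78 ± 0.58 (adjusted p 0.164; 0.00742 with edgeR).

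Of the 4 remaining genes, 3 were tested, and those 3 rose in Flox and did not pass in cKO. Rtp4 (chr16:23520291-23614222, plus strand), a receptor transport protein with antiviral activity, read 0, 46.9 and 18.3 in Flox saline, 102, 252 and 131 in Flox carrageenan, 18.03, 33.6 and 21.3 in cKO saline and 167, 151 and 184 in cKO carrageenan. Its log2 fold change was 3.95 ± 0.95 in Flox (adjusted p 0.0219; 2.70 with edgeR; lost without any 1 of the Flox carrageenan pools) and 2.78 ± 0.95 in cKO (adjusted p 0.194; 0.000135 with edgeR). Ifi35 (chr11:101448407-101458698, plus strand) read 22.2, 28.1 and 27.0 in Flox saline, 113, 88.4 and 92.7 in Flox carrageenan, 26.9, 16.8 and 31.9 in cKO saline and 45.8, 48.6 and 108 in cKO carrageenan. The rises were 1.89 ± 0.38 in Flox (adjusted p 0.00825) and 1.32 ± 0.38 in cKO (adjusted p 0.0925), and 2 of 3 cKO carrageenan pools lay below the lowest Flox carrageenan pool. EdgeR placed Ifi35 in cKO at an adjusted p of 0.0158. Xaf1 (chr11:72301629-72313733, plus strand), which promotes apoptosis, rose in Flox (3.19 ± 0.84, adjusted p 0.0342; 0.058 with edgeR; lost in 5 of 12 omissions) and reached 2.17 ± 0.84 in cKO (adjusted p 0.283). Its edgeR adjusted p in cKO was 0.0156. Ifi44 (chr3:151730922-151749960, minus strand) had 0 reads in the 6 saline pools and 19 in the 6 carrageenan pools: 7 in Flox, at least 1.80-fold higher, and 12 in cKO, at least 4.93-fold higher, against the floor of 3 reads over a group.

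Interferon genes themselves were almost unread. Of 21 genes for type I, II and III interferons, 19 had 0 reads in all 12 libraries, among them each of 13 Ifna genes. Ifnb1 had 27 reads in all, in 7 libraries, including all 6 cKO pools; it read 4.45, 1.78 and 1.54 in cKO carrageenan and 0 in each Flox carrageenan pool, where a read is worth 0.760 to 3.40. Ifng had 9 reads, 8 of them in Flox carrageenan 1-3 and 8-10. None of these could be tested. Plasmacytoid dendritic cells, known for making interferon alpha, were checked by 6 markers: 3 (Klk1, Pacsin1 and Cd300c) were at 0 in every library, and the list summed to 5.55 to 14.1 in Flox saline, 10.7 to 16.0 in cKO saline and 3.76 to 7.72 in carrageenan.

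Receptors and signalling genes formed the next lists. Of 5 tested receptor genes, 1 rose in Flox (Ifngr2, a chain of the interferon gamma receptor, 1.05 ± 0.24, adjusted p 0.0175) and 0 in cKO; Il10rb, Ifngr1 and Ifnar2 were at 0.29 ± 0.24, -0.32 ± 0.27 and 0.58 ± 0.32 in Flox and at 0.17 ± 0.24, -0.73 ± 0.27 and 0.72 ± 0.32 in cKO without passing. Of 12 JAK, STAT and IRF genes, 5 rose in Flox and 4 in cKO, and 0 fell. The kinase gene Jak2 rose in both (1.80 ± 0.27 in Flox and 1.89 ± 0.27 in cKO; adjusted p 0.00161 and 0.00179), as did Stat2 and Irf9, parts of the complex that binds the ISRE. The call of Stat2 in Flox was lost with the replicate block (adjusted p 0.0528), which left 4 of 12. Jak1 was at 0.17 ± 0.28 and 0.39 ± 0.28 without passing, and Irf1 rose in Flox (1.55 ± 0.41, adjusted p 0.0352) and reached 0.51 ± 0.41 in cKO (adjusted p 0.871). Stat3 passed in cKO (0.95 ± 0.23, adjusted p 0.0406; 0.0651 with the replicate block) and reached 0.74 ± 0.23 in Flox (adjusted p 0.0672). Irf7, which amplifies interferon production, read 0, 25.8 and 19.4 in Flox saline, 144, 303 and 287 in Flox carrageenan, 16.7, 10.7 and 18.9 in cKO saline and 85.5, 90.1 and 324 in cKO carrageenan, and rose in Flox (4.83 ± 0.93, adjusted p 0.00673) but did not pass in cKO (3.09 ± 0.93, adjusted p 0.115; 0.0430 with the replicate block). EdgeR gave Irf7 an adjusted p of 6.46e-05 in cKO.

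Further lists gave the setting of the response. Of 11 tested genes for sensing upstream of interferon, 2 rose in Flox (Myd88 and Ikbke) and 1 in cKO (Myd88, the adaptor of most Toll-like receptors, 1.09 ± 0.26 in Flox and 1.08 ± 0.26 in cKO, adjusted p 0.0198 and 0.0365). With the replicate block the adjusted p of Myd88 in cKO was 0.0704, and 0 of the 11 genes passed there. Tbk1, Tmem173 and Traf3 were at 0.15 ± 0.31, 1.67 ± 0.65 and 1.29 ± 0.61 in Flox and at 0.78 ± 0.31, 0.28 ± 0.65 and 0.71 ± 0.61 in cKO without passing. Among 6 brakes on this signalling, Socs3 rose by 1.47 ± 0.23 in Flox and 1.84 ± 0.23 in cKO (adjusted p 0.00222 and 0.000962), Ptpn1 rose by 1.29 ± 0.25 and 1.59 ± 0.25 (adjusted p 0.00717 and 0.00364), and Socs1 passed in cKO (2 of 6 genes rose in Flox and 3 of 6 in cKO). With the replicate block the adjusted p of Socs1 in cKO was 0.0541, which left 2 of 6. Ptpn6 and Pias1 were at 1.18 ± 0.56 and -0.62 ± 0.28 in Flox and -0.13 ± 0.56 and -0.23 ± 0.28 in cKO without passing. The ISG15 enzymes Uba7 and Ube2l6 were at 1.22 ± 0.55 and 2.57 ± 0.86 in Flox and 0.76 ± 0.55 and 0.85 ± 0.86 in cKO, and 0 of 2 passed. Of 8 genes known for induction by interferon gamma, 5 rose in Flox and 4 in cKO: the guanylate-binding protein gene Gbp2 by 4.87 ± 0.72 and 3.38 ± 0.72 (adjusted p 0.00161 and 0.0224), the immunity GTPases Irgm1 and Igtp and the nitric oxide synthase Nos2 in both, and Cxcl9 in Flox. Cd74, also on that list, was 0.07 ± 0.32 and 0.28 ± 0.32 (adjusted p 0.914 and 0.96).

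The makeup of the sorted cells moved with carrageenan too. Of 8 markers of inflammatory monocytes 7 rose in each genotype, and of 10 markers of resident macrophages 8 fell in Flox and 6 in cKO. Summed monocyte markers went from 538 to 1336 in Flox saline to 5289 to 7362 in Flox carrageenan, and from 428 to 886 in cKO saline to 2070 to 8085 in cKO carrageenan. Summed resident macrophage markers went from 7552 to 9530 down to 2064 to 2433 in Flox, and from 9287 to 12227 down to 2594 to 5125 in cKO. Neutrophil markers summed to 32.8 to 61.0 in Flox saline and 335 to 616 in Flox carrageenan, and to 18.1 to 33.1 and 120.4 to 611 in cKO; 4 of 6 tested rose in Flox and 3 of 6 in cKO, with Ly6g at 0 to 2.62 in every library. Fibroblast markers summed to 38.8 to 562 in Flox saline and 697 to 1208 in Flox carrageenan, and to 256 to 644 and 682 to 1024 in cKO (2 of 6 rose in Flox and 0 of 6 in cKO), and 2 of 3 tested endothelial markers rose in Flox and 0 of 3 in cKO. In Flox the replicate block gave 4 of 6 fibroblast markers and 0 of 3 endothelial markers. None of the tested markers of conventional dendritic cells (4), plasmacytoid dendritic cells (1), keratinocytes (4) or mast cells (1) passed in either genotype. In bulk libraries a change in the share of a cell type and a change in RNA per cell cannot be told apart. The part of these shifts in the rise of the 33 genes was not tested.

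Genotypes were compared within each treatment, to ask what differs between cKO and Flox. The Cre, its Lyz2 allele and the targeting of Fabp5 cannot be told apart in this comparison. In saline, 25 of the 33 genes could be tested and 0 were called, as were 0% of the 9371 genes tested; 1 of the 25 (Oas1a) had an unadjusted p under 0.05, and edgeR and DESeq2 also called 0 of the 25. The median over the 25 genes (log2, cKO over Flox) was 0.29, beside 0.25 over all genes. Oas1a was at -1.73 ± 0.65 (95% interval -3.21 to -0.25, adjusted p 0.683) and Isg15 at -1.08 ± 0.54 (95% interval -2.32 to 0.16, adjusted p 0.683). Oasl1 was at 2.15 ± 1.07 (95% interval -0.30 to 4.61, adjusted p 0.683), where Flox saline 1-3 had no read. For these 3 genes the intervals were wide, whereas others were narrower, at -0.43 to 1.01 for Oasl2, -0.81 to 0.98 for Trim30a and -0.09 to 1.64 for Samd9l.

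After carrageenan, 32 genes were tested and 0 were called, as were 0% of the 9151 genes tested; EdgeR called 0 of the 32, and DESeq2 called 0 and gave no adjusted p for 8 of them. The median log2 fold change was -0.06, beside 0.09 over all genes. An unadjusted p under 0.05 was found for 4 of the 32. These were Ifit1 (0.65 ± 0.25, 95% interval 0.09 to 1.21), Cmpk2 (0.66 ± 0.26, 0.09 to 1.23) and Mx2 (1.28 ± 0.45, 0.28 to 2.29), higher in cKO, and Oas3 (-1.20 ± 0.52, -2.35 to -0.04), lower, with adjusted p of 0.497, 0.497, 0.497 and 0.503. Every cKO pool lay above every Flox pool for 4 of the 32 genes and below for 0, where 8.87% and 6.19% of all genes tested did so.

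The 3 cKO carrageenan pools were not alike. In pools 1-4 and 5-8, 14 of the 32 genes lay below every Flox carrageenan pool (20.1% of all genes tested) and 5 lay above every Flox pool (24.8% of all genes tested). In pool 9-12, 0 of the 32 lay below the Flox range, 21 lay within it and 11 above, beside 19.8%, 56.8% and 23.4% of all genes tested. The 14 low genes were Isg15, Oas1a, Oas2, Oas3, Isg20, Dhx58, Zbp1, Eif2ak2, Bst2, Ifitm3, Dtx3l, Parp14, Ifi35 and Xaf1, and the 5 high genes were Usp18, Ifit1, Mx2, Cmpk2 and Ifih1. Pool 9-12 held more than 2 times the mean of the other pools for 11 of the 32 genes (13.03% of all genes), with ratios of 5.14 for Isg20, 4.66 for Isg15, 4.29 for Oas3, 4.24 for Oas1a and 4.00 for Zbp1. It held less than that mean for 7 of the 32, with Mx2 at 0.68 and Ifih1 at 0.73. The median ratio was 1.48 over the 32 genes and 0.96 over all genes tested, so a ratio below 1 was common among all genes. For 13 of the 32 genes pool 9-12 was the highest of its group in saline as well as in carrageenan, Isg15, Zbp1, Oas3, Bst2 and Ifitm3 among them, where 22.7% of all genes tested did so.

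**Figure D4:**
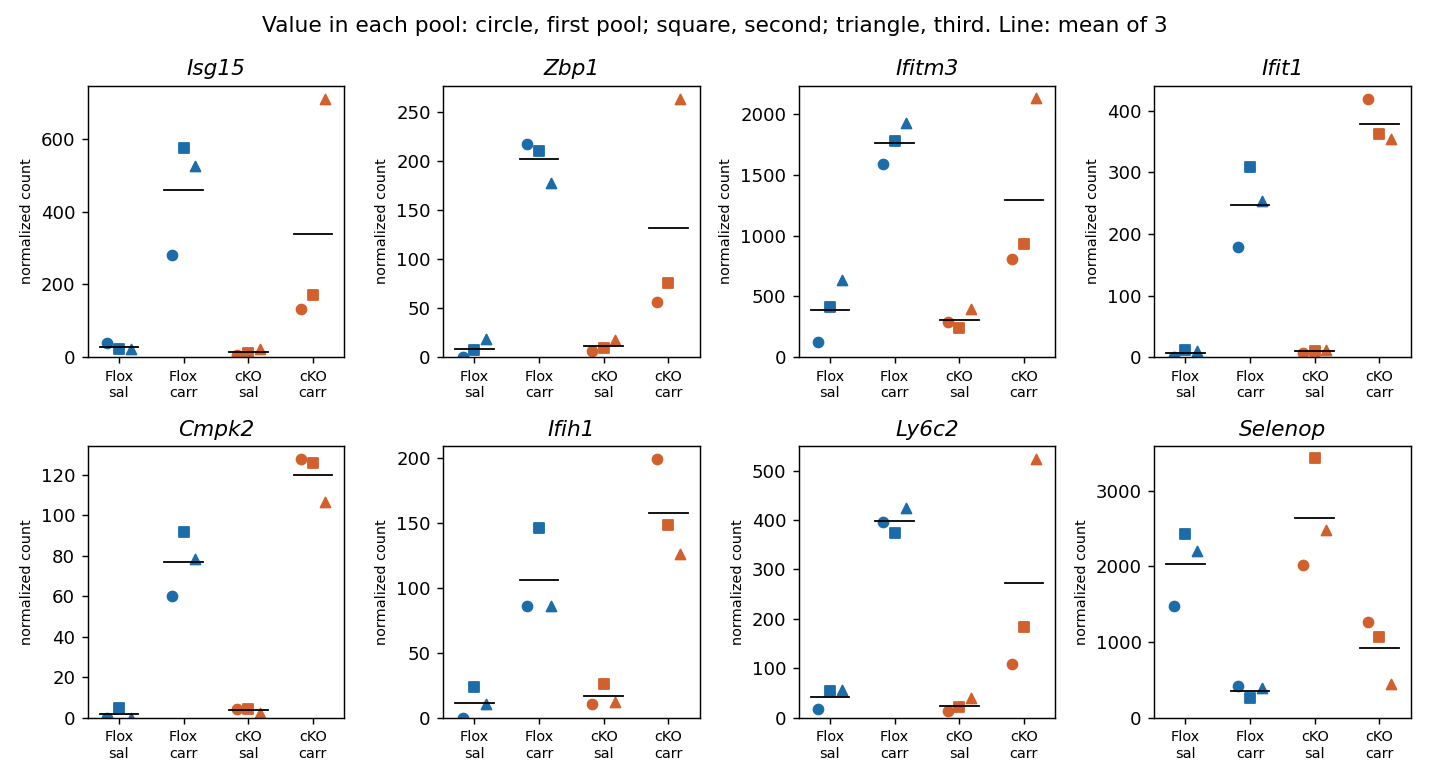
Normalized count of 6 interferon-stimulated genes, the monocyte marker Ly6c2 and the resident macrophage marker Selenop in each pool, with circle, square and triangle for the pools in order of mouse number and a line for the mean of 3. In cKO carrageenan the triangle (pool 9-12) stands at or above the Flox carrageenan points for Isg15, Zbp1, Ifitm3 and Ly6c2 while the other 2 pools lie below them, and all 3 cKO pools lie above the Flox mean for Ifit1, Cmpk2 and Ifih1.

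Pool 9-12 was singled out after seeing that it stood high for genes such as Isg15, Oas3 and Zbp1. Without pool 9-12, 4 of the 32 genes were called lower in cKO after carrageenan (3.29% of 8908 genes tested were called lower) and 0 higher (1.43%). They were Zbp1 (log2 fold change -1.60 ± 0.22, adjusted p 0.0102), Ifitm3 (-1.01 ± 0.15, 0.0132), Oas3 (-1.88 ± 0.31, 0.0177) and Isg15 (-1.52 ± 0.31, 0.0338), each ± SE and with 2 cKO pools against 3 Flox pools. Oas1a was at -1.99 ± 0.47 (adjusted p 0.0579) and Ifi35 at -1.02 ± 0.24 (adjusted p 0.0526). On the other side Ifit1 was at 0.70 ± 0.25, Cmpk2 at 0.74 ± 0.24 and Ifih1 at 0.75 ± 0.29 (adjusted p 0.155, 0.133 and 0.196). The voom fit with sample quality weights, which keeps all 6 pools and weights each by its spread, called 12 of the 32 lower and 3 higher, where 16.5% of all genes tested were called. Its 3 higher genes were Ifit1, Cmpk2 and Ifih1, and the 4 genes named first were among the 12 lower ones. With all 3 pools at equal weight, as given above, none of these differences passed. Leaving out any other pool of this comparison called 0 of the 32 genes. The calls without pool 9-12 thus rest on a choice made on the same values.

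**Figure D5:**
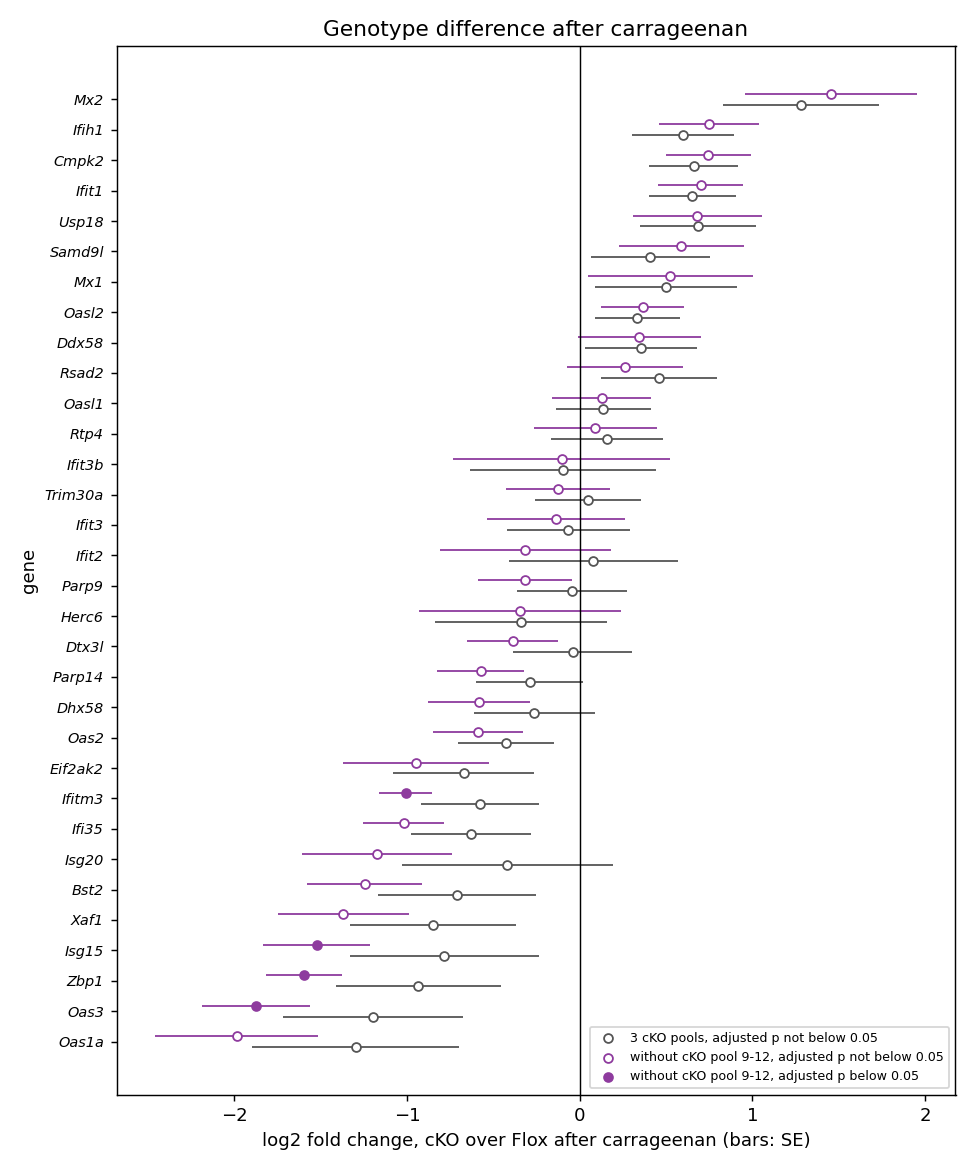
Log2 fold change of cKO over Flox after carrageenan for the 32 tested genes, with all 3 cKO pools (grey) and without cKO pool 9-12 (purple), bars for 1 standard error and filled points for an adjusted p below 0.05. Pool 9-12 was singled out after its values were seen. Without the pool the lower end of the list moves left and Ifitm3, Isg15, Zbp1 and Oas3 are filled, while the upper end (Mx2, Ifih1, Cmpk2 and Ifit1) changes little.

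Markers of cell type also differed between the cKO carrageenan pools. Ly6c2, a marker of inflammatory monocytes, read 109, 184 and 523 in cKO carrageenan pools 1-4, 5-8 and 9-12, compared with 374 to 424 in Flox carrageenan. Chil3, expressed by the same cells, read 66.7, 152 and 511 in cKO and 334 to 371 in Flox. In the other direction the resident macrophage genes Selenop and Lyve1 read 1265, 1061 and 440.0 and 442, 396 and 142, compared with 258 to 419 and 68.0 to 195 in Flox. Not every gene of that list did so. F13a1 was highest in pool 9-12 (498, 447 and 692, with 585 to 647 in Flox). Timd4 read 38.3, 28.8 and 17.0, with pools 1-4 and 5-8 inside the Flox range of 20.4 to 41.0. Summed over the lists, inflammatory monocyte markers came to 2070, 5061 and 8085, resident macrophage markers to 5125, 4603 and 2594 and neutrophil markers to 120.4, 153 and 611 in the 3 cKO pools. Without Thbs1, the highest gene of its list in each carrageenan pool, the monocyte sums were 648, 1239 and 3088, compared with 2256 to 2635 in Flox. Irf7 read 85.5, 90.1 and 324 in the cKO pools. Pool 9-12 was also the shallowest cKO library, with 508407 reads against 2271231 and 2627107. Mitochondrial genes held 4.60%, 4.36% and 3.18% of the reads of the 3 cKO pools, and 2.40% to 3.11% in Flox carrageenan. The part of cell makeup, depth and RNA quality in the differences between pools was not tested.

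Whether the response to carrageenan differed between the genotypes was tested as an interaction over all 12 libraries. It was called for 0 of 32 genes and for 0% of the 10243 genes tested; 1 of the 32 had an unadjusted p under 0.05, edgeR and DESeq2 called 0 of the 32, and the smallest adjusted p was 0.967. The median difference of the 2 responses was -0.47 (22 genes smaller in cKO and 10 larger), beside -0.15 over all genes. Ifit3 had the smallest p, with a difference of -1.88 ± 0.84 (95% interval -3.68 to -0.08, adjusted p 0.967), and rests on a single read in Flox saline. For Isg15 the difference was 0.30 ± 0.78 (95% interval -1.37 to 1.96) and for Oasl2, the gene with the least spread, 0.05 ± 0.35 (95% interval -0.71 to 0.80). The 26 calls in Flox and 15 in cKO are therefore not shown to differ: for Zbp1, called in Flox only, the difference was -2.02 ± 1.20 (95% interval -4.58 to 0.55), and for Parp14 -1.93 ± 1.35 (-4.80 to 0.95).

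In the authors' deposited table for carrageenan, 0 of the 33 genes had an adjusted p under 0.05 for cKO over Flox, among 32 with a value, and the log2 fold changes ran from -0.73 to 0.84 with 20 of 33 negative. In the authors' deposited table for saline, 0 of 33 passed, among 16 with an adjusted p, and the log2 fold changes ran from -1.19 to 0.75 with 15 negative of the 32 that had one.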

How the data were processed

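RNA from sorted paw cells was made into libraries with the LUTHOR 3′ mRNA kit, which adds molecular identifiers, per the labels' protocols. Cutadapt, STAR and the GRCm38 genome are named, per the submitters' processing notes. For the read counter, its use of strand and of molecular identifiers, and all versions, the sources used here say nothing. The deposited signal values are normalized counts: the authors divided each library's reads by 1 size factor, separately for the saline and the carrageenan table, and 100% of the values came out as whole reads when divided by the library's smallest step. The authors' deposited tables of cKO over Flox give log2 fold changes, p-values and a score (fold change over its standard error), per the file headers; the tool behind them is not named there.

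Symbols and coordinates (GRCm38) come from the GENCODE vM21 annotation, matched by gene ID. Genes were the rows with a gene ID; the 121 other entries held 0.170% to 2.23% of the reads of a library. Carrageenan was compared with saline over all 12 libraries after putting them on 1 scale by medians of ratios (6501 genes above 0 everywhere). Genotypes were compared within the 6 libraries of a treatment, and the interaction over all 12, both on the deposited scale. The test was limma 3.58.1 (trended empirical Bayes, R 4.3.3) on log2(normalized count + 1), for genes with values of 5 or more in 3 libraries. Fold changes are on that scale, which can understate or overstate the change of low genes. The 13 genes with no read in Flox saline 1-3 described above had a Flox median of 3.97, against 2.98 with edgeR. P-values were adjusted over all genes tested by Benjamini-Hochberg. Only the limma fit without a block, for carrageenan against saline in each genotype, was tried on simulated counts. The genotype, interaction and alternative fits were not. EdgeR 4.0.16, DESeq2 1.42.0 and limma's voom with sample quality weights were run on the recovered reads as alternatives, beside other pseudocounts (0.5 and 5), filters, scalings, a replicate block and omission of each library. Counting intervals are exact at 95% and cover counting error only, and floors stand for 3 reads. Values in each library are given for the 2 genes of each role group with the highest means, for tested genes called in neither genotype after carrageenan, and for Fabp5 and Lyz2; of other pathway lists up to 4 genes with the highest means are given, and further genes were named after their values were seen.

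Labels give saline and carrageenan pools the same mouse numbers without saying that the mice are the same. Deviations from the group means of same-numbered pools correlated at 0.20, 0.34 and 0.43 in cKO, each above 0.1, and at 0.01, -0.02 and 0.11 in Flox. By a cutoff of 0.1 in every pair, the numbers would count as pairs in cKO only. Of the differently numbered cKO pools, saline 5-8 and carrageenan 1-4 correlated at 0.24, above the 0.20 of the pair 1-4. The main fits nevertheless had no block in either genotype, and the replicate block, run as an alternative, had pool terms in both. No fit had pool terms in cKO alone. Genes called for carrageenan were 18 with the block and 15 without it in cKO, and 27 and 26 in Flox. The 33 genes and the lists were chosen with earlier results of these data known. 1 gene of the list of JAK, STAT and IRF factors is not reported here and is left out of its counts.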

Additional observations from a re-analysis of the deposited data

How the results depend on the processing

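All 32 log2 fold changes of carrageenan over saline stayed positive in both genotypes under every alternative run. The counts of genes called moved more. Shares over all genes were computed for only some of these fits and are given above. The other counts cannot be set beside such a share. In Flox (26 of 32) the count was 15 when only the 6 Flox libraries entered the fit, 27 with the replicate block, and 18 (without Flox carrageenan 4-7) to 27 when 1 library was left out, with medians of 2.55 to 3.83. In cKO (15 of 32) it was 30 with edgeR, 30 with DESeq2, 31 with voom and sample quality weights, 27 when only the 6 cKO libraries entered the fit, 23 with a pseudocount of 5 (median 2.32) and 24 without Flox saline 1-3 and cKO carrageenan 9-12, an alternative chosen after seeing the data. The replicate block gave 18 in cKO, adding Oas3, Ifih1, Zbp1 and Samd9l and losing Dhx58. Leaving out 1 library gave 10 (without cKO carrageenan 5-8, cKO saline 1-4 or cKO saline 5-8) to 31 (without Flox saline 1-3) in cKO, with medians of 2.51 to 2.82. After carrageenan 0 of 32 genes were called between genotypes, 15 with voom and sample quality weights, and 0 to 4 when 1 library was left out, the 4 without cKO carrageenan 9-12 (medians -0.33 to 0.29). In saline and in the interaction 0 genes were called under any alternative, the interaction with the replicate block included. The cause of these moves was not tested. Depth limits the values of low genes: the 3 Flox saline libraries held 0 reads of Ifit3b and 1 of Ifit3.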
